A study of Homo sapiens with 38 samples.

Results

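The second day of CHIR99021 treatment was examined in 4 of the 38 libraries of the series: both libraries of H9 cells at 48 h of CHIR99021 against both libraries at 24 h, over all genes. H9 is an established human embryonic stem cell line. CHIR99021 blocks the kinase GSK3 and so keeps beta-catenin from being destroyed. The study set CHIR99021 beside recombinant Wnt3a and beside an H9 line with an integrated, doxycycline-inducible, constitutively active beta-catenin (bcat) over several days. The 48 h cells had been kept for 48 h, and the 24 h cells for 24 h, in RPMI1640 with B27 supplement lacking vitamin A and 10 µM CHIR99021, with medium and ligand renewed every 24 h. All of these cultures started from a full cell layer plated on Matrigel. No culture kept in that medium without the inhibitor was analysed here, so hours in the medium and hours with the inhibitor cannot be told apart. The Wnt3a cells received 240 ng/ml of the ligand, and the bcat cells received 1 µg/ml doxycycline, in the same medium. Each group had 2 libraries, which the labels call biological replicates without naming separate cultures. The p-values rest on a spread between libraries that was estimated over all 37 in the main fit, in 19 groups. They do not measure the spread of the compared groups alone, nor that between separate cultures.

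Beta-catenin that escapes destruction enters the nucleus and switches on genes through TCF and LEF factors, among them the gene T, and these genes mark the primitive streak, where cells of the early embryo leave the epithelium. NODAL, a secreted ligand, acts with WNT in the front part of the streak, which gives endoderm and anterior mesoderm. In the back part, WNT, FGF, CDX and HOX genes mark the cells that form presomitic mesoderm, the tissue that is cut into somites. HOX genes open in order along their clusters, low numbers first, as the body axis grows.

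The libraries held 30.5 and 18.6 M estimated counts at 48 h, against 9.06 and 26.3 M at 24 h. Levels are given in CPM, the count relative to the library's TMM-scaled total, and are not divided by gene length, so they compare libraries for 1 gene and not genes with each other. Replicates correlated across genes with r = 0.993 at 48 h and 0.990 at 24 h on the log2(CPM + 0.5) scale, where genes are not independent replicates. Mitochondrial RNA held 10.3% and 10.4% of counts at 48 h, against 13.2% and 12.8% at 24 h, and cytosolic ribosomal RNA held 4.74% to 5.79% in all 4 libraries. The 13 mitochondrially encoded mRNAs were a small part of the mitochondrial RNA. Their summed level was 2921 and 3311 CPM at 48 h, against 3753 and 3531 CPM at 24 h. The 72 h libraries of the same arm did not lie beyond the 48 h libraries for most of the called genes. Of 4647 called genes with at least 5 CPM in the higher group, 3768 (81.1%) had a 72 h mean between their 24 h and 48 h means, 398 were at or past the 48 h mean, and 481 lay on the far side of the 24 h mean. Why the 48 h libraries lie farthest out was not tested. Each library is taken at the time its label gives, which the files alone cannot check. In bulk RNA, a gain or loss of cells of 1 type and a change of RNA per cell cannot be told apart.

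Among 24304 genes tested, 6228 (25.6%) were called between 48 h and 24 h at an adjusted p below 0.05 by edgeR's quasi-likelihood test with Benjamini-Hochberg adjustment. Of these, 3094 (12.7%) were higher and 3134 (12.9%) were lower at 48 h. A change of at least 2-fold was fitted for 1378 of the higher and 1874 of the lower genes. The median log2 change of all genes tested was 0.00375. The 48 h and 24 h libraries did not overlap in 15054 genes (61.9%; 32.3% with 48 h higher and 29.6% with 48 h lower), so separation alone says little with 2 libraries a group. HOX genes, presomitic genes, BMP pathway genes and mesenchymal genes had more members higher than lower, and pluripotency, epithelial and NODAL pathway genes had more members lower.

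**Figure D1:**
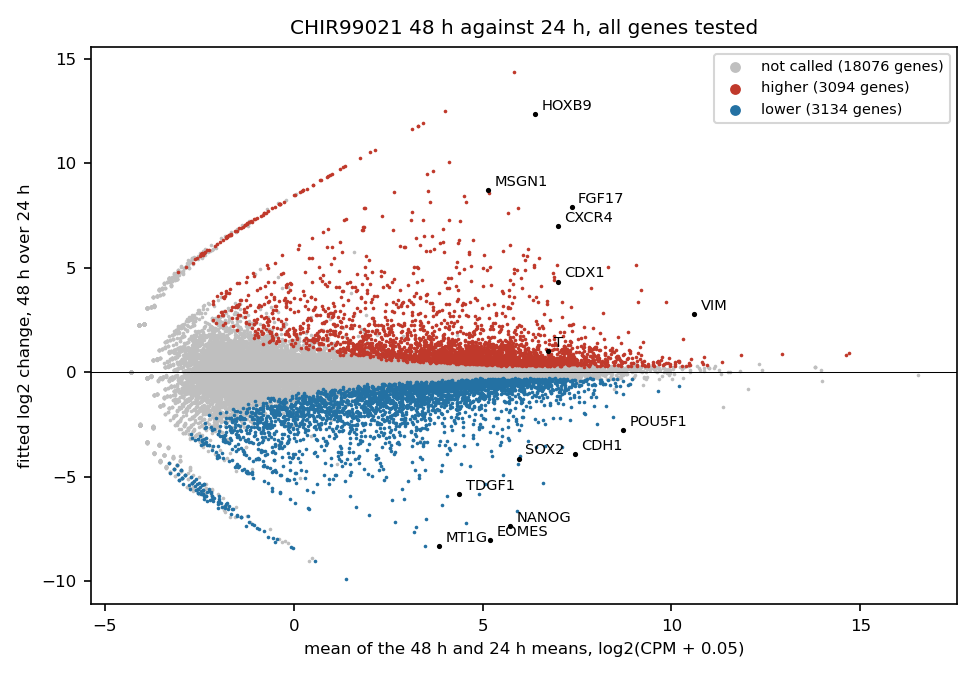
Each point is 1 of the 24304 genes tested, with the mean of the 48 h and 24 h means on the horizontal axis (log2 of CPM + 0.05) and the fitted log2 change, 48 h over 24 h, on the vertical axis. The 3094 red points were called higher, the 3134 blue points lower, and the rising and falling edges at the left are genes with 0 counts in 1 group, whose fitted change depends on a prior count.

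Sequences just before the start site are shown for 2 genes that rose and 2 that fell, because these 4 stand for the presomitic and the NODAL sides of the change. They are the 250 bases before the RefSeq start on GRCh38.p14, read 5′ to 3′ on the gene's strand. MSGN1 lies at chr2:17816210-17816459 (plus strand), RSPO3 at chr6:127118421-127118670 (plus strand), EOMES at chr3:27722324-27722573 (minus strand) and NODAL at chr10:70441682-70441931 (minus strand). The windows of EOMES and NODAL, and the end of that of RSPO3, lie inside the GENCODE gene, so these 3 windows do not stand before every annotated start.
MSGN1: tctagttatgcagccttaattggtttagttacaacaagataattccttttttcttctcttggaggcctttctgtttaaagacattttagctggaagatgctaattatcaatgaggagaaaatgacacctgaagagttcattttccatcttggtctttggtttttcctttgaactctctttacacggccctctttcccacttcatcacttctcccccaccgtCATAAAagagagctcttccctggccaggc
RSPO3: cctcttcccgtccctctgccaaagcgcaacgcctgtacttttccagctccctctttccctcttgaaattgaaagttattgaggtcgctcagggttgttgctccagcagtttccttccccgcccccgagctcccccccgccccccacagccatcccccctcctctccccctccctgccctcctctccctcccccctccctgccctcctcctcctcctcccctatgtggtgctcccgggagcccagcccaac
EOMES: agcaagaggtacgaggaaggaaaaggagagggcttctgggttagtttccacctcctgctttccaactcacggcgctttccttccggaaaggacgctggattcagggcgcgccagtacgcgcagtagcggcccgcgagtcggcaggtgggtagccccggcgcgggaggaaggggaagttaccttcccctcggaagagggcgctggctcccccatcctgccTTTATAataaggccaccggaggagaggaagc
NODAL: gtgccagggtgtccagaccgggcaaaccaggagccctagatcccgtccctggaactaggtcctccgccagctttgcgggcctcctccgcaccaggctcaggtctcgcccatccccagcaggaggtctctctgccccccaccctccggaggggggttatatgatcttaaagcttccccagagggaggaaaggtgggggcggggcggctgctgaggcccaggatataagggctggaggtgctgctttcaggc
Capitals mark the CDX letters TTTATN on either strand, which also occur in TATA boxes. They were found in MSGN1 and EOMES, a gene that rose and a gene that fell, and in 32.6% of 35116 promoters of the table. The TCF/LEF letters CTTTGAT, found in 2.26% of promoters, and the T-box letters TCACACCT, found in 0.786%, were in none of these 4 windows on either strand. Both were searched as exact letters, while TTTATN leaves its last base open, so near forms of them were not counted. A match describes letters and is no evidence of binding.

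HOX genes rose across all 4 clusters. Of 39 listed HOX genes 35 were analysed and 23 passed the filter on low counts, and all 23 were called higher, beside 12.7% of all genes. A gene silent at 24 h passes that filter through its level in another group, often the 48 h one, so the count is no measure of how many HOX genes moved. All 12 genes of paralogs 1 to 4 were called, with a median log2 change of 6.20, or 5.88 with genes at 0 counts set to their lower bound. All 9 tested genes of paralogs 5 to 8 were called, with a median of 8.03, or 6.35 at the bound. Of paralogs 9 to 13, HOXB9 and HOXA13 were called among 12 in the table. The call of HOXA13 rested on 0.378 and 0.544 CPM at 48 h, against 0.0996 and 0 CPM at 24 h (ratio 16.7, 95% counting interval 2.69 to 691, adjusted p = 0.0384). That call was lost without 48 h replicate 1, without 48 h replicate 2 or without 24 h replicate 2, and also with DESeq2, with only the 4 libraries in the fit and on the deposited values.

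HOXB1, the first gene of cluster B, was already measured at 24 h. It had 87.3 and 95.4 CPM at 48 h, against 1.39 and 1.77 CPM at 24 h (log2 change 5.79 ± 0.25 SE, edgeR adjusted p = 4.2e-17). HOXB1 was above 1 CPM in both 24 h libraries, and the groups did not overlap. HOXB3 had 66.7 and 76.5 CPM at 48 h, against 0.0996 and 0.216 CPM at 24 h (log2 change 8.57 ± 0.39, adjusted p = 6.04e-16).

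Genes farther along were at or near 0 counts at 24 h. HOXB4 (GRCh38, chr17:48575513-48580111) had 30.8 and 32.9 CPM at 48 h and 0 counts in both 24 h libraries. With 3 counts in place of 0 over the 24 h group it was at least 398-fold higher at 48 h (adjusted p = 8.2e-11). HOXB9 (chr17:48621159-48626356) had 185 and 148 CPM at 48 h, against 0.0996 and 0 CPM at 24 h. Its 8120 counts at 48 h stood against 1 count at 24 h, a ratio of 6463 with a wide counting interval (1160 to 255296, adjusted p = 2.72e-10). HOXB8 had 19.1 and 15.6 CPM at 48 h and 0 counts at 24 h, at least 224-fold higher at 48 h. In cluster C, HOXC5 had 5.74 and 7.67 CPM at 48 h and 0 counts at 24 h, at least 81.7-fold higher. Bounds and intervals cover counting error only. With DESeq2, HOXB5, HOXC5 and HOXD4 were not called (adjusted p = 0.146, 0.513 and 0.426) and 4 of the paralogs 5 to 8 were.

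At 72 h HOXB9 and HOXB4 were lower than at 48 h in these libraries. HOXB9 had 19.9 and 10.8 CPM at 72 h and HOXB4 had 16.8 and 13.2 CPM. These are levels without a test.

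**Figure D2:**
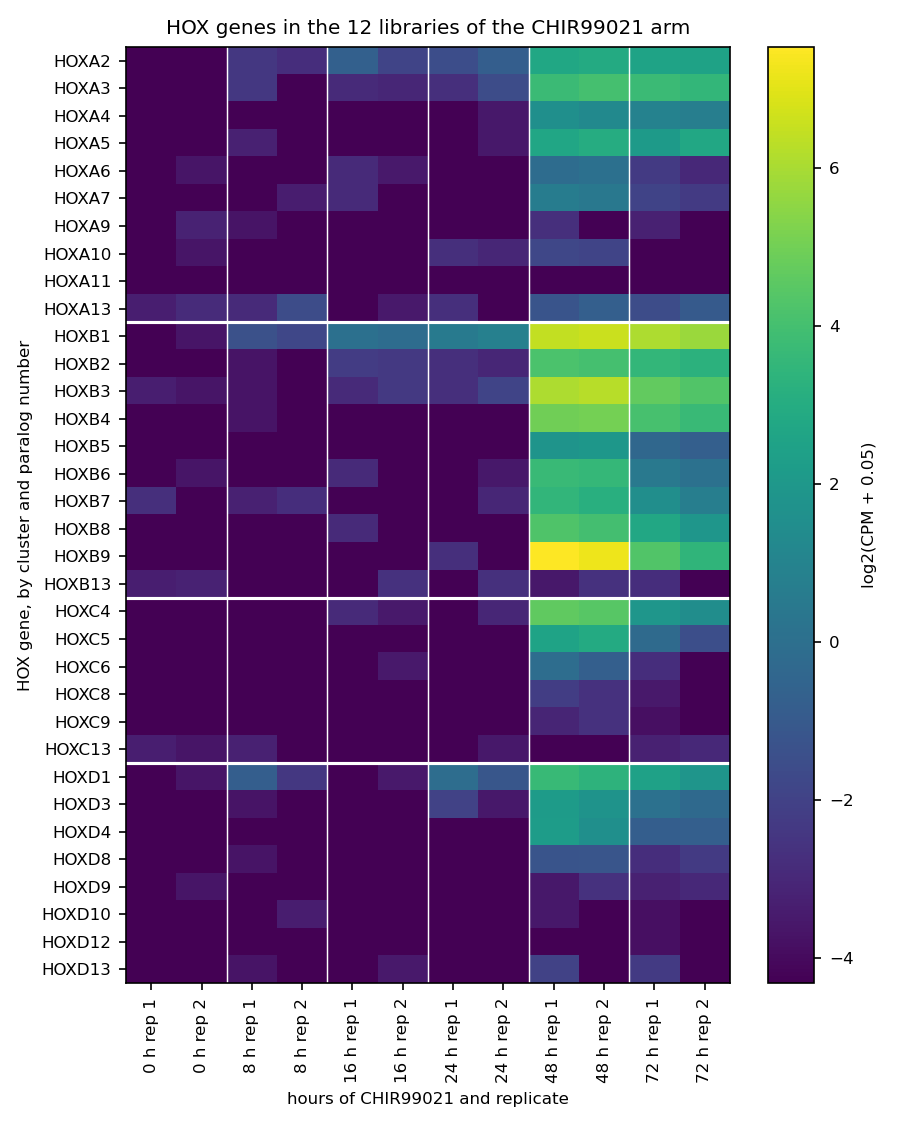
Each row is 1 HOX gene and each column 1 of the 12 libraries of the CHIR99021 arm from 0 to 72 h, with colour giving log2(CPM + 0.05). HOXB1 is above background before 48 h, and most genes of paralogs 2 to 9 are bright at 48 h only or at 48 and 72 h.

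The CDX factors, which act upstream of posterior HOX genes, rose as well, and 4 of 5 tested genes of the CDX, EVX and GBX list were called higher. CDX1 had 211 and 273 CPM at 48 h, against 10.7 and 12.9 CPM at 24 h (log2 change 4.34 ± 0.24, adjusted p = 2.37e-13). CDX4 had 68.5 and 56.4 CPM at 48 h, against 1.59 and 2.23 CPM at 24 h (log2 change 4.96 ± 0.32, adjusted p = 3.21e-13). CDX2 was already at 53.2 and 41.4 CPM at 24 h and had 121 and 141 CPM at 48 h (log2 change 1.48 ± 0.24, adjusted p = 5.79e-05). EVX1, a posterior streak homeobox gene, had 44.95 and 43.4 CPM at 48 h, against 14.3 and 15.4 CPM at 24 h (adjusted p = 0.0149). The EVX1 call was lost without 48 h replicate 1, 24 h replicate 1 or 24 h replicate 2.

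Of 26 presomitic mesoderm and segmentation clock genes tested, 15 were higher and 4 lower at 48 h, with a median log2 change of 1.23. Over all genes tested 12.7% were higher and 12.9% lower, so the lower count lies near its share. MSGN1, a bHLH factor of presomitic mesoderm, had 80.3 and 61.4 CPM at 48 h, against 0.398 and 0.0721 CPM at 24 h (log2 change 8.71 ± 0.52, adjusted p = 3.27e-09). TBX6, a T-box factor of the same tissue, had 48.9 and 50.2 CPM at 48 h, against 2.09 and 2.63 CPM at 24 h (log2 change 4.35 ± 0.28, adjusted p = 2.14e-13). Both factors were several times higher in each 48 h library than in either 24 h library. The clock repressor HES7 had 24.9 and 23.1 CPM at 48 h, against 0.199 and 0.541 CPM at 24 h (log2 change 5.78 ± 0.47). The NOTCH ligand DLL3 had 258 and 197 CPM at 48 h, against 9.16 and 12.1 CPM at 24 h (log2 change 4.39 ± 0.25). The 4 lower genes were MESP2, FGF18, NRARP and HEYL. MESP2, which marks the next segment boundary, had 0.0687 and 0 CPM at 48 h, against 1.19 and 1.26 CPM at 24 h, a ratio of 29.5 lower at 48 h (95% counting interval 7.73 to 251). MESP1, a related early mesoderm factor, had 0.206 and 0.326 CPM at 48 h, against 0.199 and 0.505 CPM at 24 h, and was not called (adjusted p = 0.615).

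The ligand genes RSPO3, FGF17 and FGF8 rose. RSPO3, which raises WNT signalling at the membrane, had 137 and 109 CPM at 48 h, against 0.498 and 0.541 CPM at 24 h (log2 change 7.85 ± 0.40, adjusted p = 1.31e-14). FGF17 had 341 and 310.3 CPM at 48 h, against 0.896 and 1.55 CPM at 24 h (log2 change 7.91 ± 0.38, adjusted p = 9.38e-14). FGF8 had 184 and 167 CPM at 48 h, against 5.38 and 3.10 CPM at 24 h (log2 change 5.47 ± 0.27, adjusted p = 3.48e-15). These 3 ligand genes had no overlap between groups. Of 32 FGF pathway genes 15 were higher and 8 lower, and among the lower ones the receptor FGFR2 had 3.51 and 5.60 CPM at 48 h, against 71.3 and 72.4 CPM at 24 h (log2 change -4.02 ± 0.24). Of 18 neuromesodermal and caudal epiblast genes 11 were higher and 3 lower, beside 12.7% and 12.9% of all genes tested. The lower ones were SOX2, NKX1-2 and SP8, and NKX1-2, a caudal epiblast homeobox gene, had 45.4 and 64.5 CPM at 48 h, against 249.9 and 279 CPM at 24 h (log2 change -2.27 ± 0.18).

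**Figure D3:**
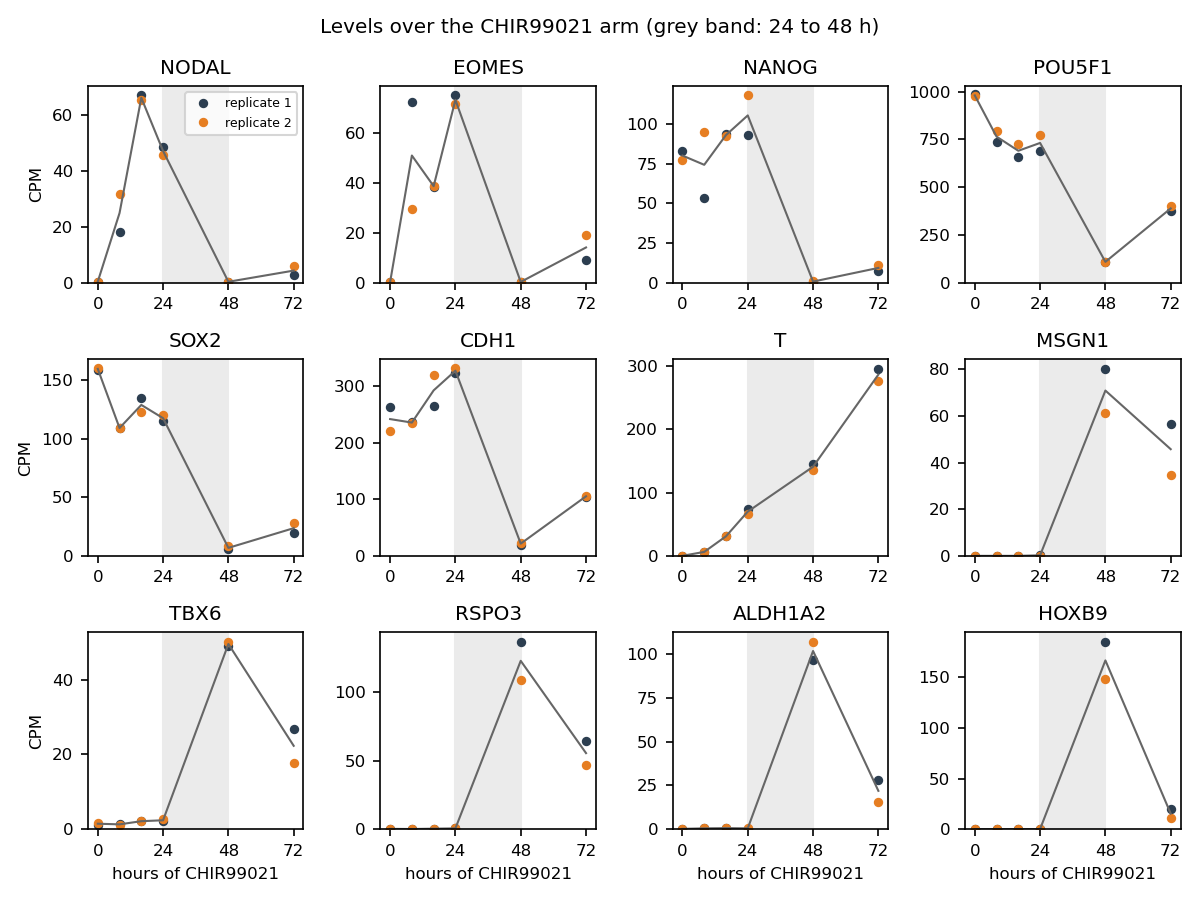
CPM on a linear axis from 0 against hours of CHIR99021 for 12 genes, with a point per library and a line through the group means. Within the grey band from 24 to 48 h NODAL, EOMES, NANOG, POU5F1, SOX2 and CDH1 fall and the other 6 genes rise, and at 72 h all of them except T turn back toward their 24 h level.

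NODAL, EOMES and CER1, which act in the front part of the streak, fell. NODAL (chr10:70432315-70447951) had 0.344 and 0.272 CPM at 48 h, against 48.7 and 45.5 CPM at 24 h (log2 change -7.20 ± 0.36, adjusted p = 4.84e-15). EOMES (chr3:27715949-27722711), a T-box factor of mesendoderm, had 0.241 and 0.326 CPM at 48 h, against 75.0 and 71.4 CPM at 24 h (log2 change -8.03 ± 0.58, adjusted p = 9.45e-10). Both genes were near 0 CPM in each 48 h library. CER1, a secreted NODAL and BMP inhibitor, had 0 counts at 48 h, against 0.697 and 1.59 CPM at 24 h, and was at least 21.4-fold lower at 48 h (adjusted p = 1.79e-05). Of 25 NODAL pathway genes 11 were lower and 4 higher, with a median log2 change of -0.33. Over all genes tested 12.9% were lower and 12.7% higher, so the higher count lies near its share. Leaving out 48 h replicate 1 or 24 h replicate 2 left 7 lower, and 2 were higher without 24 h replicate 2. The coreceptor TDGF1 had 0.722 and 0.707 CPM at 48 h, against 39.4 and 42.3 CPM at 24 h (log2 change -5.83 ± 0.24), and the pseudogene TDGF1P3 shares its sequence. The effector SMAD4 was higher, with 146 and 164 CPM at 48 h, against 108 and 109.6 CPM at 24 h (log2 change 0.51 ± 0.11).

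Not all streak genes fell: of 22 in the list 7 were higher and 7 lower, beside 12.7% and 12.9% of all genes tested. T, the streak factor brachyury, had 146 and 136 CPM at 48 h, against 74.0 and 66.1 CPM at 24 h (log2 change 1.01 ± 0.18, adjusted p = 4.38e-05). MIXL1, a streak homeobox gene, had 117 and 106 CPM at 48 h, against 148 and 148 CPM at 24 h, and was not called (log2 change -0.41 ± 0.33, adjusted p = 0.425). With only the 4 libraries in the fit MIXL1 was called lower (adjusted p = 0.00188). Of 17 endoderm genes 3 were higher and 5 lower, with the higher count near the share of all genes. SOX17, a defining endoderm factor, had 0 counts in all 4 libraries. The receptor gene CXCR4, which the endoderm list holds and mesoderm also expresses, had 270.0 and 237 CPM at 48 h, against 2.19 and 1.91 CPM at 24 h (log2 change 6.98 ± 0.27).

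Of 30 pluripotency genes 27 were lower and 1 was higher, with a median log2 change of -1.91. NANOG had 0.550 and 0.762 CPM at 48 h, against 92.7 and 118 CPM at 24 h (log2 change -7.37 ± 0.36, adjusted p = 1.16e-13). SOX2 had 5.57 and 8.05 CPM at 48 h, against 115 and 119.9 CPM at 24 h (log2 change -4.13 ± 0.18, adjusted p = 5.25e-17). POU5F1 had 107 and 110.2 CPM at 48 h, against 689.8 and 772 CPM at 24 h (log2 change -2.75 ± 0.11, adjusted p = 1.47e-17). The fitted fall was smallest for POU5F1 among these 3 factors, and POU5F1 stayed above 100 CPM. The exception in the list was LIN28B, an inhibitor of let-7 processing, with 251 and 246 CPM at 48 h, against 200.2 and 188 CPM at 24 h (log2 change 0.36 ± 0.11, adjusted p = 0.0144), and this call was lost without 48 h replicate 1, 48 h replicate 2 or 24 h replicate 2 and with no filter on low counts. NANOGP8, a pseudogene that shares sequence with NANOG, had 0 and 0.163 CPM at 48 h, against 24.4 and 19.8 CPM at 24 h, 332 times lower at 48 h (counting interval 113 to 1614). Its reads and those of NANOG cannot be told apart with certainty.

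Mesenchymal genes rose and most epithelial genes fell. Of 24 mesenchymal genes 14 were higher and 0 lower, with a median log2 change of 1.55 and 16 at an unadjusted p below 0.05. VIM, an intermediate filament gene, had 2735 and 2692 CPM at 48 h, against 378 and 418 CPM at 24 h (log2 change 2.77 ± 0.15). CDH2, or N-cadherin, had 457 and 439 CPM at 48 h, against 149 and 145 CPM at 24 h (log2 change 1.61 ± 0.12). SNAI1, a repressor of CDH1, had 44.4 and 47.4 CPM at 48 h, against 4.78 and 4.33 CPM at 24 h (log2 change 3.34 ± 0.25). Each of these genes was higher in both 48 h libraries. Of 28 epithelial genes 19 were lower and 5 higher, with a median of -1.60. Their summed level was 2209.4 and 2106.5 CPM at 48 h, against 2386.6 and 2449.8 CPM at 24 h. CDH1, or E-cadherin, had 20.003 and 23.2 CPM at 48 h, against 323 and 332 CPM at 24 h (log2 change -3.93 ± 0.22, adjusted p = 1.89e-13). ESRP1, an epithelial splicing factor, had 4.61 and 6.96 CPM at 48 h, against 116 and 119 CPM at 24 h (log2 change -4.37 ± 0.15). The 5 higher genes were DSP, DSG2, KRT8, KRT19 and LAMB1, which encode desmosome, keratin and laminin parts. KRT19 had 228 and 226 CPM at 48 h, against 58.5 and 62.0 CPM at 24 h (log2 change 1.91 ± 0.14). Outside the list, the hair follicle keratins KRT74 and KRT71 were among the 12 largest rises. KRT74 had 23.3 and 19.5 CPM at 48 h and 0 counts at 24 h, at least 275-fold higher, and KRT71 had 40.3 and 28.2 CPM at 48 h, against 0 and 0.0360 CPM at 24 h, a ratio of 1345 (counting interval 241 to 53159).

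**Figure D4:**
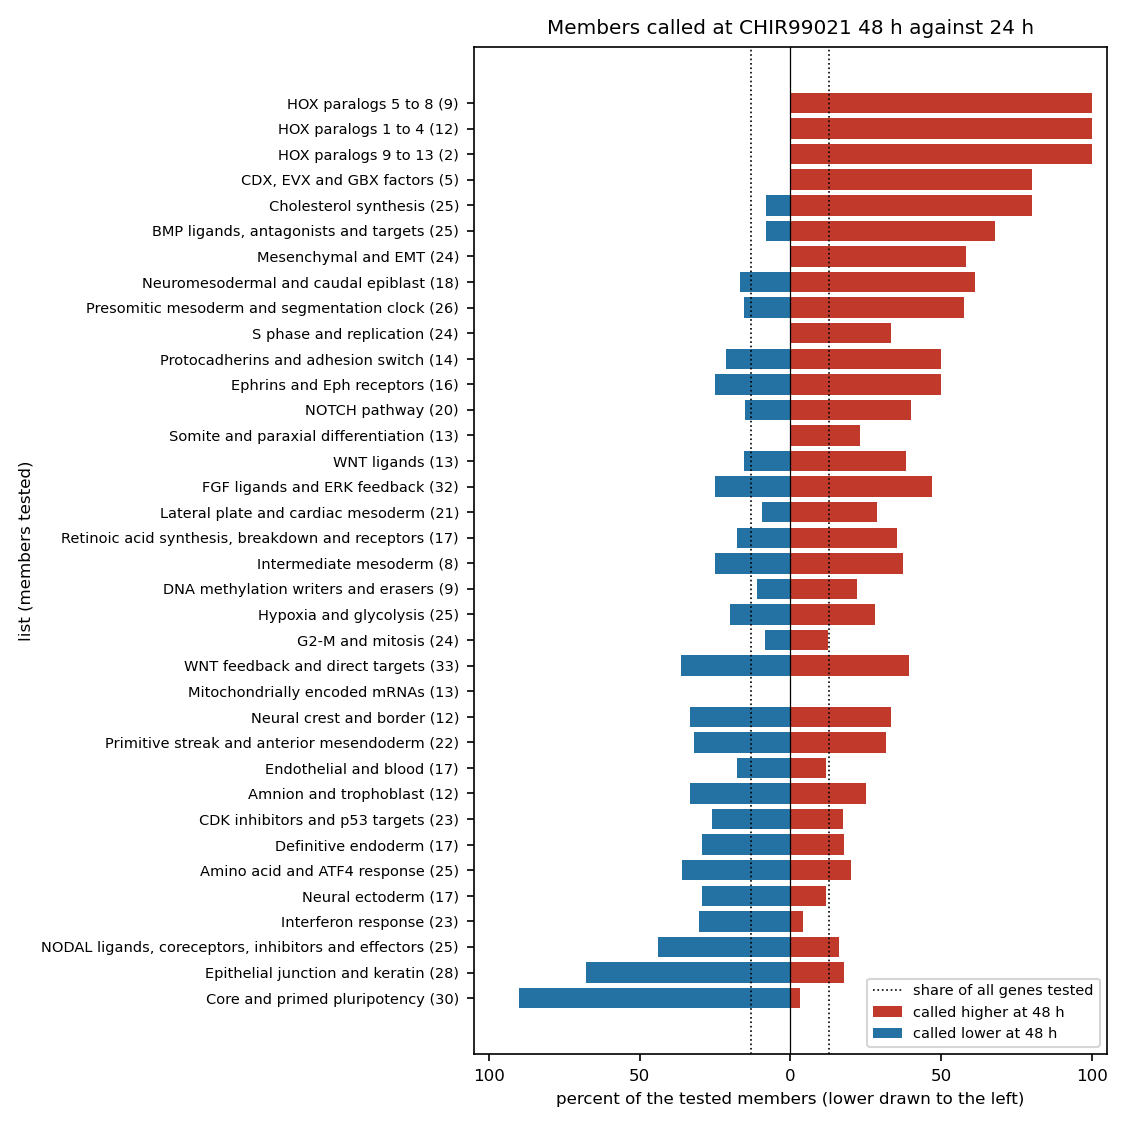
Share of the tested members of each of 36 gene lists called higher (red, right) and lower (blue, left) at 48 h, with dotted lines at the shares of all genes tested, 12.7% and 12.9%. HOX lists lie at the top with all tested members higher, and pluripotency genes lie at the bottom with 27 of 30 lower.

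BMP pathway genes rose in the main: of 25 tested 17 were higher and 2 lower, with a median log2 change of 2.29. The ligand BMP4 had 11.1 and 12.7 CPM at 48 h, against 0.996 and 1.37 CPM at 24 h (log2 change 3.26 ± 0.38). The target ID1 had 40.3 and 37.7 CPM at 48 h, against 5.08 and 4.90 CPM at 24 h (log2 change 2.97 ± 0.22). The antagonist GREM1 had 36.6 and 25.6 CPM at 48 h, against 0.398 and 0.649 CPM at 24 h (log2 change 5.76 ± 0.38). Ligands, targets and antagonists were all among the higher genes. The lower 2 were ID2 and FST, and ID2 had 32.9 and 41.8 CPM at 48 h, against 80.6 and 104 CPM at 24 h (log2 change -1.31 ± 0.18).

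WNT feedback genes went both ways, with 13 of 33 higher and 12 lower, and 7 lower without 24 h replicate 1. AXIN2, a feedback scaffold of the destruction complex, had 316 and 382 CPM at 48 h, against 239 and 279.8 CPM at 24 h, and was not called (adjusted p = 0.0771). It was called with only the CHIR99021 arm or only the 4 libraries in the fit (adjusted p = 0.0102 and 0.0121). SP5, a direct target, had 292 and 268 CPM at 48 h, against 218 and 285 CPM at 24 h, and these groups overlap. NOTUM, which removes a lipid from WNT proteins, had 156 and 199.9 CPM at 48 h, against 8.46 and 11.5 CPM at 24 h (log2 change 4.12 ± 0.23, adjusted p = 1.97e-14). DKK1, a receptor antagonist, had 1218 and 854 CPM at 48 h, against 31.3 and 27.8 CPM at 24 h (log2 change 5.14 ± 0.29). The frizzled receptors moved apart, FZD10 with 257 and 247 CPM at 48 h, against 23.5 and 25.2 CPM at 24 h, and FZD7 with 55.0 and 79.2 CPM at 48 h, against 179 and 193 CPM at 24 h. Of 13 WNT ligands tested 5 were higher and 2 lower, with a median log2 change of 0.0034. Over all genes tested 12.7% were higher and 12.9% lower, so the lower ligand count lies near its share. WNT3A had 22.9 and 21.8 CPM at 48 h, against 0.0996 and 0.541 CPM at 24 h (log2 change 5.78 ± 0.41). The lower 2 were WNT10B and WNT9A, and WNT10B had 0.550 and 0.598 CPM at 48 h, against 17.5 and 20.98 CPM at 24 h (log2 change -5.07 ± 0.39). With no filter, on the deposited values, or without 48 h replicate 1, 24 h replicate 1 or 24 h replicate 2, 1 ligand was lower.

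Of 17 retinoic acid genes 6 were higher and 3 lower, beside 12.7% and 12.9% of all genes tested. ALDH1A2, which makes retinoic acid in early mesoderm, had 96.5 and 107 CPM at 48 h, against 0.199 and 0.649 CPM at 24 h (log2 change 7.62 ± 0.42, adjusted p = 3.28e-14). Its relatives went the other way. ALDH1A3 was called lower (log2 change -3.02 ± 0.37, edgeR adjusted p = 1.79e-07). ALDH1A1 was also called lower (log2 change -3.97 ± 0.95), at a mean of only 0.200 CPM over the 2 groups. DHRS3, which turns retinal back to retinol, had 54.2 and 48.6 CPM at 48 h, against 3.78 and 4.72 CPM at 24 h (log2 change 3.56 ± 0.20). CYP26A1, which breaks retinoic acid down, had 0.103 and 0.435 CPM at 48 h, against 0.896 and 0.108 CPM at 24 h, so the groups overlap and it was not called. Of 13 somite genes tested 3 were higher and 0 lower, with 6 at an unadjusted p below 0.05, and PAX3 had 37.9 and 36.6 CPM at 48 h, against 2.59 and 3.68 CPM at 24 h (log2 change 3.52 ± 0.38).

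Markers of other cell types the cultures could hold gave calls in both directions, beside 12.7% of all genes tested higher and 12.9% lower. The endothelial counts and the higher neural ectoderm count lie near these shares. Of 17 endothelial and blood genes 2 were higher and 3 lower, and their summed level was 72.8 and 66.7 CPM at 48 h, against 151 and 150.2 CPM at 24 h. Of 17 neural ectoderm genes 2 were higher and 5 lower, with a summed level of 278 and 270.1 CPM at 48 h, against 190.0 and 205 CPM at 24 h. Of 12 amnion and trophoblast genes 3 were higher and 4 lower, with a summed level of 141 and 163 CPM at 48 h, against 73.5 and 60.95 CPM at 24 h. CDX2, counted above with the CDX factors, made up most of that sum. Of 12 neural crest genes 4 were higher and 4 lower, and their summed level showed the largest shift of these 4 lists, with 277 and 303 CPM at 48 h, against 34.8 and 44.8 CPM at 24 h. The 4 higher ones were PAX3, MSX1, MSX2 and ZIC1, and MSX1, a homeobox gene that mesoderm also expresses, had 153 and 166 CPM at 48 h, against 3.48 and 5.77 CPM at 24 h. The neural crest factor SOX10 had 0 counts at 48 h, against 0 and 1.48 CPM at 24 h, and FOXD3 had 0.0344 and 0 CPM at 48 h, against 0.797 and 1.66 CPM at 24 h. Without 24 h replicate 2, 1 endothelial and 1 neural ectoderm gene were higher and 2 neural crest genes lower, and without 48 h replicate 2 or 24 h replicate 1, 1 neural ectoderm gene was higher. The part of such cells in the changes above was not tested.

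Of 25 cholesterol synthesis genes 20 were higher and 2 lower, with a median log2 change of 0.64 and a largest one of 2.03. Over all genes tested the shares were 12.7% higher and 12.9% lower, and the mitosis counts below lie near them. IDI1, an enzyme of the isoprenoid steps, had 97.7 and 79.4 CPM at 48 h, against 38.5 and 33.9 CPM at 24 h (log2 change 1.30 ± 0.13, adjusted p = 7.16e-09). Of 24 S phase genes 8 were higher and 0 lower, with 11 at an unadjusted p below 0.05, and of 24 mitosis genes 3 were higher and 2 lower, with 1 lower when any 1 of the 4 libraries was left out and 5 lower with only the 4 libraries or only the CHIR99021 arm in the fit. Of 25 amino acid and ATF4 genes 5 were higher and 9 lower, and asparagine synthetase ASNS had 76.5 and 76.1 CPM at 48 h, against 176 and 198 CPM at 24 h (log2 change -1.30 ± 0.12). With any 1 of the 4 libraries left out 2 or 3 of that list were higher. None of 13 mitochondrially encoded mRNAs was called by edgeR with all libraries in the fit, with 2 at an unadjusted p below 0.05. DESeq2 called 1 of them lower. With other sets of libraries in the fit edgeR called 7 lower (only the 4 libraries), 5 lower (only the CHIR99021 arm) and 1 lower (without the 4 libraries in doubt).

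The metallothioneins were among the largest falls, and this family was looked at after its values had been seen. MT1G (chr16:56666731-56668065) had 0.103 and 0.0544 CPM at 48 h, against 25.8 and 31.3 CPM at 24 h (log2 change -8.32 ± 0.36, adjusted p = 4.4e-17). MT1H had 0.103 and 0.109 CPM at 48 h, against 16.4 and 20.6 CPM at 24 h, and MT1E had 0.137 and 0.218 CPM at 48 h, against 18.7 and 26.2 CPM at 24 h. Of 11 MT1 and MT2 genes tested 8 were lower and 0 higher. These genes bind metal ions and share much sequence, so the assignment of reads among them is uncertain. The remaining largest falls include CUZD1, with 0.0687 and 0.109 CPM at 48 h, against 15.5 and 20.1 CPM at 24 h, and HES3, with 0.137 and 0 CPM at 48 h, against 12.05 and 13.3 CPM at 24 h. FOXD3-AS1, an antisense RNA, had 0 counts at 48 h, against 4.98 and 5.30 CPM at 24 h, at least 82.5-fold lower. Among the largest rises, TDO2, a tryptophan dioxygenase, had 24.2 and 14.4 CPM at 48 h and 0 counts at 24 h, at least 257-fold higher, and PRSS56, a serine protease, had 5.499 and 4.57 CPM at 48 h and 0 counts at 24 h, at least 64.7-fold higher. The antisense RNA HOXA-AS3 had 116 and 112 CPM at 48 h and 0 counts at 24 h, at least 1444-fold higher, and HOXB-AS3 had 20.1 and 18.8 CPM at 48 h and 0 counts at 24 h. Whether counting used strand is not given in the sources used here, so reads of antisense RNAs and of the genes they overlap cannot be told apart.

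The same hours were compared with the other ways of raising beta-catenin, by testing the 24 to 48 h change with CHIR99021 minus that with Wnt3a or in bcat. The paired changes share no library. Over these hours 10.0% of genes were called higher and 8.96% lower with Wnt3a, and 4.64% higher and 4.36% lower in bcat. The difference from Wnt3a was called for 4136 genes (17.0%), 1878 above (7.73%) and 2258 below (9.29%). The difference from bcat was called for 2482 genes (10.2%), 1148 above (4.72%) and 1334 below (5.49%). A library of bcat at 24 h and a library of bcat at 48 h were rich in ribosomal RNA. Without the 4 libraries in doubt in the series the bcat count was lower, in a fit with no replicates of bcat at 24 h or 48 h. The count above was 695 without CHIR99021 48 h replicate 1, 765 without bcat 48 h replicate 2 and 764 without bcat 24 h replicate 2.

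NODAL and EOMES fell with CHIR99021 while they rose with Wnt3a. With CHIR99021 EOMES had 0.241 and 0.326 CPM at 48 h, against 75.0 and 71.4 CPM at 24 h. With Wnt3a EOMES had 307 and 332 CPM at 48 h, against 10.7 and 8.87 CPM at 24 h, and the log2 changes differed by -13.07 ± 0.70 (adjusted p = 2.44e-11). NODAL had 157 and 172 CPM at 48 h of Wnt3a, against 16.4 and 14.5 CPM at 24 h, and its changes differed by -10.61 ± 0.43 (adjusted p = 5.39e-16). CER1 had 502 and 646 CPM at 48 h of Wnt3a, against 16.3 and 14.0 CPM at 24 h. In bcat, NODAL had 15.8 and 12.7 CPM at 48 h, against 15.6 and 14.8 CPM at 24 h, and EOMES had 43.9 and 32.3 CPM at 48 h, against 24.6 and 20.9 CPM at 24 h. Neither change in bcat was called (adjusted p = 0.934 and 0.217), and both differed from the change with CHIR99021.

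Of the 22 streak genes, the change with CHIR99021 was called below that with Wnt3a for 16 and above it for 2. With Wnt3a itself 19 of the 22 were called higher over these hours and 0 lower. NANOG, SOX2 and POU5F1 fell further with CHIR99021 than in either other arm. POU5F1 had 842 and 914 CPM at 48 h of Wnt3a, against 868 and 920.1 CPM at 24 h, and its changes differed by -2.72 ± 0.15 from Wnt3a and by -2.29 ± 0.15 from bcat. ALDH1A2 had 0.544 and 0.141 CPM at 48 h of Wnt3a, against 0.195 and 0.213 CPM at 24 h, and the CHIR99021 change was above it by 7.36 ± 1.20 on the log2 scale (adjusted p = 4.51e-05). T rose in all 3 arms, but less with CHIR99021, by -2.10 ± 0.32 against Wnt3a and by -2.00 ± 0.25 against bcat. T had 121 and 96.9 CPM at 48 h in bcat, against 15.0 and 12.3 CPM at 24 h.

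The change with CHIR99021 was called above that with Wnt3a for 3 of 12 HOX genes of paralogs 1 to 4 and for 1 of 9 of paralogs 5 to 8. Over all genes the share was 7.73%. These few calls do not stand for a like rise with Wnt3a, where 1 of the 12 and 0 of the 9 were called higher. In bcat 10 of the 12 and 5 of the 9 were called higher. The CHIR99021 change was called above that in bcat for 5 and 1 of them, beside 4.72% of all genes. HOXB3 had 0.109 and 0 CPM at 48 h of Wnt3a, against 0.130 and 0.0426 CPM at 24 h, so a fitted change there rests on a few counts. In bcat HOXB3 had 7.41 and 6.79 CPM at 48 h, against 0.192 and 0.173 CPM at 24 h, and the CHIR99021 change was above it by 3.29 ± 0.72 (adjusted p = 0.00245), a call lost without bcat 24 h replicate 2. MSGN1 rose in bcat too, to 6.38 and 4.18 CPM at 48 h, against 0 counts at 24 h, and its difference from CHIR99021 was not called (adjusted p = 0.656). VWA2, an extracellular matrix protein gene, had 117 and 90.1 CPM at 48 h of CHIR99021, against 1.39 and 1.59 CPM at 24 h. In bcat it had 1.37 and 1.96 CPM at 48 h, against 3.26 and 3.10 CPM at 24 h, and the changes differed by 7.09 ± 0.43 (adjusted p = 2e-12).

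**Figure D5:**
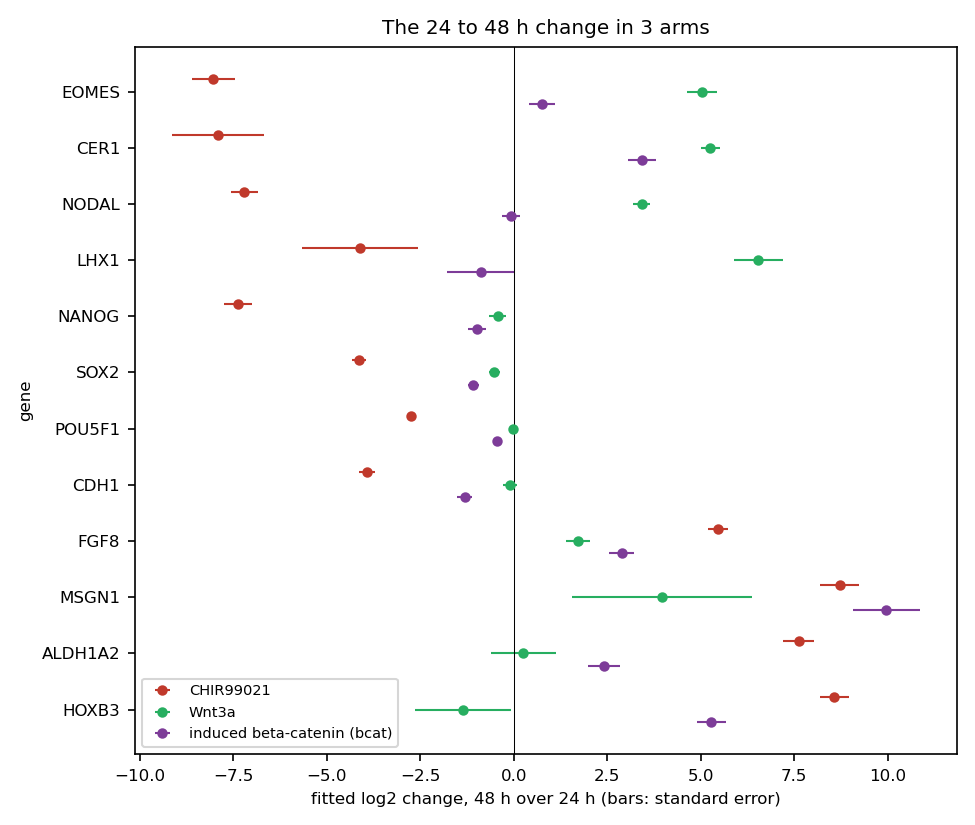
Fitted log2 change from 24 to 48 h for 12 genes with CHIR99021, with Wnt3a and in bcat, with bars for the standard error. EOMES, CER1 and NODAL lie left of 0 with CHIR99021 and right of 0 with Wnt3a, and NANOG, SOX2, POU5F1 and CDH1 lie farther left with CHIR99021 than in the other arms.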

How the data were processed

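The authors deposited 1 table of estimated counts per gene symbol, made with kallisto 0.43.0 per the submitters' processing notes. No source used here gives the build, the annotation or the summing of transcripts. Each deposited column held estimated counts times 1 constant, found as the value that most genes share, so columns were divided by it. After that 70.5% to 76.9% of the values up to 20 in the 4 libraries lay within 0.1 of a whole number, and values were rounded. Both Wnt3a 72 h columns were identical in 43412 genes and counted once, which left 37 of 38 libraries. Symbols turned into dates (27) are not named.

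edgeR 4.0.16 in R 4.3.3 fitted 19 group means (18 residual degrees of freedom) with TMM, filterByExpr by group, trended dispersions (0.00921 to 0.246) and robust quasi-likelihood tests. P-values were adjusted by Benjamini-Hochberg over 24304 genes, and below 0.05 a gene was called. DESeq2 1.42.0 and other filters, scalings and sets of libraries were alternatives. Replicate numbers did not pair the libraries (correlation of deviations -0.00156). For 0 counts in a group a bound was computed from 3 counts, and for 1 to 3 counts a ratio with its 95% interval. Positions come from GENCODE release 29 (GRCh38) by symbol, and promoters from RefSeq, which gave none for HOXB4, HOXB9 and CDX1.

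Named genes were the 12 per direction with the largest change among called genes whose groups do not overlap and whose higher mean reached 5 CPM, 5 per direction for each difference between arms, anchor genes, and up to 5 called members per list. The comparison, the lists and these rules were chosen with earlier results of these data known. Lists are described by counts and medians, with no test. Values of some listed genes are not reported here.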

Additional observations from a re-analysis of the deposited data

Results flagged for a closer look

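The 24 to 48 h change with CHIR99021 differed from that with Wnt3a in 4136 genes and from that in bcat in 2482 genes, by the test of the difference in edgeR. For the genes below the value is the log2 change with CHIR99021 minus that in the other arm. A negative value means a larger fall or a smaller rise with CHIR99021, or a fall beside a rise in the other arm.

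Against Wnt3a the streak and NODAL genes had negative differences, with CER1 at -13.15, EOMES at -13.07, LHX1 at -10.64 and NODAL at -10.61, and the antisense RNA FOXD3-AS1 had -9.16. CER1 and FOXD3-AS1 had 0 counts at 48 h of CHIR99021 and LHX1 nearly so, so the size and the rank of their fitted values, here and against bcat, depend on a prior count and are no measured folds. Pluripotency and epithelial genes followed with NANOG -6.94, CDH1 -3.82, SOX2 -3.61 and POU5F1 -2.72. Above 0 were ALDH1A2 at 7.36, FGF8 at 3.75, HOXB3 at 9.92, HOXC4 at 11.17, HOXA-AS3 at 16.85, RP11-357H14.16 at 13.01, RP11-482H16.1 at 11.26 and RPL23AP42 at 14.88. The last 5 of these had 0 counts in a group of these arms or nearly so, their fitted values depend on a prior count and are no measured folds, and each lost its call when 1 Wnt3a library was left out. RPL23AP42 is a ribosomal protein pseudogene with 0 CPM in both 48 h libraries of Wnt3a and 4.997 and 5.88 CPM at 24 h, and its call was also lost without any CHIR99021 library except 48 h replicate 2, under the replicate block (edgeR adjusted p = 0.0603), with no filter (adjusted p = 0.0527) and without the 4 libraries in doubt (adjusted p = 0.0508).

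Against bcat the negative differences were CER1 -11.34, EOMES -8.79, NODAL -7.13, NANOGP8 -6.93, FOXD3-AS1 -6.83, NANOG -6.38, SOX2 -3.05, CDH1 -2.61 and POU5F1 -2.29. The positive ones were RP11-844P9.5 at 9.10, TUBBP6 at 7.38, VWA2 at 7.09, CPNE4 at 6.84, HOXC4 at 6.78, ALDH1A2 at 5.21, HOXB3 at 3.29 and FGF8 at 2.58. TUBBP6, a tubulin pseudogene whose reads may belong to a relative, had 0 counts at 48 h of bcat and nearly so at 24 h, so its fitted value depends on a prior count, and RP11-844P9.5 was near 0 at 48 h of bcat. TUBBP6 lost its call without 4 of the libraries in turn and on the deposited values, and HOXB3 without bcat 24 h replicate 2. Without the 4 libraries in doubt, each gene of this paragraph kept its direction. Those 4 hold bcat 24 h replicate 1 and bcat 48 h replicate 2, in which ribosomal RNA held 60.3% and 60.2% of counts. That fit has no replicates of bcat at 24 h or 48 h, so its calls for these genes are not given.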

How the results depend on the processing

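The count of genes called between 48 h and 24 h was 6228 and ranged over 5526 (no filter) to 7538 (CHIR99021 arm only) under other scalings, filters, sets of libraries and tests. DESeq2 called 6191, with 5744 of them shared. Without 1 of the 4 libraries it was 4356 to 4990. The replicate block gave 6004, and same-numbered libraries did not deviate together (correlation -0.00156). For the difference from Wnt3a the block gave 3975, and leaving out 1 library 3097 to 3451. For bcat the block gave 2365, leaving out 1 library 1768 to 2217, with 695 to 1097 genes above, and without the 4 libraries in doubt 1729, with 724 above. The fit without the 4 libraries in doubt has no replicates of bcat at 24 h or 48 h, which limits its bcat count. Genes that turned sign were not called before: with 1 library left out CYP26A1 ranged from -1.91 to 1.08, MESP1 from -0.96 to 0.36, RNF43 from -0.0606 to 0.0008 and SP5 from -0.0254 to 0.36 in log2 change. The cause was not tested. Low counts limit genes under 1 CPM, where 1 count in 24 h replicate 1 is worth most.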

Other observations

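NOTCH genes had 8 of 20 higher and 3 lower at 48 h, among them the receptor NOTCH1 with 170 and 154 CPM at 48 h, against 59.8 and 70.03 CPM at 24 h. Without 48 h replicate 1 or 24 h replicate 2, 1 NOTCH gene was lower. The lateral plate list had 6 of 21 higher and 2 lower. Over all genes tested 12.7% were higher and 12.9% lower, and the lower NOTCH and lateral plate counts lie near that share. FOXF1, a lateral plate factor, had 3.57 and 10.8 CPM at 48 h, against 0 and 0.0721 CPM at 24 h, and the 2 libraries at 48 h differ from each other. The VEGF receptor KDR had 19.97 and 18.1 CPM at 48 h, against 111 and 109 CPM at 24 h (log2 change -2.53 ± 0.25). Of 23 interferon genes 7 were lower and 1 higher.

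Among annotated gene types, 31 of 208 misc_RNA genes were higher (14.9%) and 0 lower, beside 12.7% and 12.9% of all genes tested. For protein coding genes the shares were 17.1% higher and 16.7% lower.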
